A study of Mus musculus with 6 samples.

Results

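The 85 genes described here are those named for the proteins of the cytosolic ribosome, 52 after the large and 33 after the small subunit. They were taken by symbol (Rpl or Rps followed by a digit, plus Rpsa and Rplp0 to Rplp2, without the kinases and the pseudogenes) from 12974 protein-coding genes with a value. Of 86 annotated genes that fit this rule, Rps27rt had no value and is not analysed here. The rule also takes in Rps19bp1, a binding partner of Rps19 rather than a ribosomal protein, and 7 paralogs, such as Rpl22l1. The data come from embryonic stem cells of C57BL/6 mice, in 6 libraries made by mNET-seq. There are 2 libraries from a first knockout of Mettl3 (KO1), 2 from a second knockout (KO2) and 2 from control cells. All were grown in serum with LIF and the kinase inhibitors CHIR99021 and PD0325901, which hold such cells in a naive pluripotent state. Whether KO1 and KO2 are single clones, and how the gene was disrupted, is not given in the sources used here. Mettl3 is the catalytic subunit of the enzyme that writes the m6A mark on RNA, and the study asked how its loss bears on transcription.

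Ribosomal protein genes are short, have few exons and are among the most strongly transcribed genes of a growing cell. RNA polymerase II usually starts them at a pyrimidine tract, which gives their mRNAs the terminal oligopyrimidine (TOP) end through which mTOR signalling controls their translation. Many carry small nucleolar RNAs (snoRNAs) in their introns, short guides for rRNA modification that are cut out of the spliced intron. mNET-seq sequences short pieces of nascent RNA that come down with RNA polymerase II from nuclease-treated chromatin, so it shows the positions of polymerases along a gene. The authors deposited an escaping index per transcript, in log2, which is a ratio within the transcript. Going by its name, a higher value is taken here to mean that more of the signal lies past the start of the transcript. The index is not a level of RNA or of polymerase, and the windows it compares are not known here. Each gene is described by its longest protein-coding transcript. The term called is used for a limma adjusted p under 0.05, adjusted over all 12974 genes.

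Read depth is unknown, so no counting error can be given. Between the 2 libraries of a group, the index of the 85 genes correlated across genes at r = 0.979 in KO1, 0.983 in KO2 and 0.979 in control (genes are not independent replicates). Nothing in the labels tells separate cultures from repeat libraries of 1 culture, so the p-values cover only the spread between these libraries, which may be technical. Mettl3 had an index of 2.43 ± 0.0136 in KO1, 2.20 ± 0.142 in KO2 and 2.58 ± 0.167 in control (SD, n = 2 each), and was called in neither knockout (limma adjusted p = 0.618 in KO1 and 0.166 in KO2). Such a ratio is no check of the knockout. All 12 embryonic stem cell markers had an index, as did 5 of 10 fibroblast markers and 1 of 6 primitive endoderm markers. That a marker is listed says nothing of its level. The cells were measured in bulk, so fewer cells of one kind and less signal per cell cannot be told apart.

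The index spanned a wide range among the ribosomal protein genes. Control means ran from -0.21 for Rpl10l to 9.37 for Rpl21. Rpl21, a large subunit protein, was at 9.16 and 8.66 in KO1, 8.91 and 9.11 in KO2, and 9.50 and 9.25 in control. Rpl35, which sits near the mouth of the peptide exit tunnel, was at 8.88 and 8.36 in KO1, 8.65 and 8.70 in KO2, and 8.49 and 7.70 in control, and its control libraries lay on both sides of KO1 replicate 2. Rplp2, one of the acidic proteins of the stalk that recruits elongation factors, was at 7.43 and 7.26 in KO1, 7.22 and 6.95 in KO2, and 8.01 and 7.70 in control. For Rpl21 and Rplp2 both knockouts lay below control, with KO1 and KO2 overlapping in Rpl21. In the small subunit, Rps19, the gene most often mutated in human Diamond-Blackfan anaemia, was at 6.22 and 6.13 in KO1, 6.26 and 7.79 in KO2, and 8.14 and 7.10 in control. Its libraries differed by more than 1 within KO2 and within control.

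The genes with the lowest control means were shorter than the family's median span of 3221 bases. Rpl10l, a single-exon paralog of Rpl10 known for its role in male germ cells, was at -0.16 and -0.82 in KO1, -1.43 and -0.89 in KO2, and 0.00 and -0.42 in control. Rpl36 was at -0.18 and 0.02 in KO1, -0.13 and -0.04 in KO2, and -0.30 and 0.45 in control, with every group inside the spread of control. Rps27, a zinc finger protein of the small subunit, was at 0.14 and -0.33 in KO1, -0.47 and -0.64 in KO2, and 0.11 and 0.09 in control. Rps2, a protein of the mRNA entry channel, was at 0.98 and 0.97 in KO1, 0.82 and 0.73 in KO2, and 0.93 and 0.85 in control, and Rps21 was at 0.77 and 1.11 in KO1, 0.42 and 0.42 in KO2, and 0.93 and 1.01 in control. In both, the KO2 libraries were the lowest. Across the 85 genes, the control index rose with the genomic span of the transcript (Pearson's r = 0.518 and Spearman's rho = 0.510 with log10 span, which ran from 828 to 11817 bases), against 0.688 and 0.681 across all protein-coding genes. These are descriptions across genes, which share libraries.

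**Figure D1:**
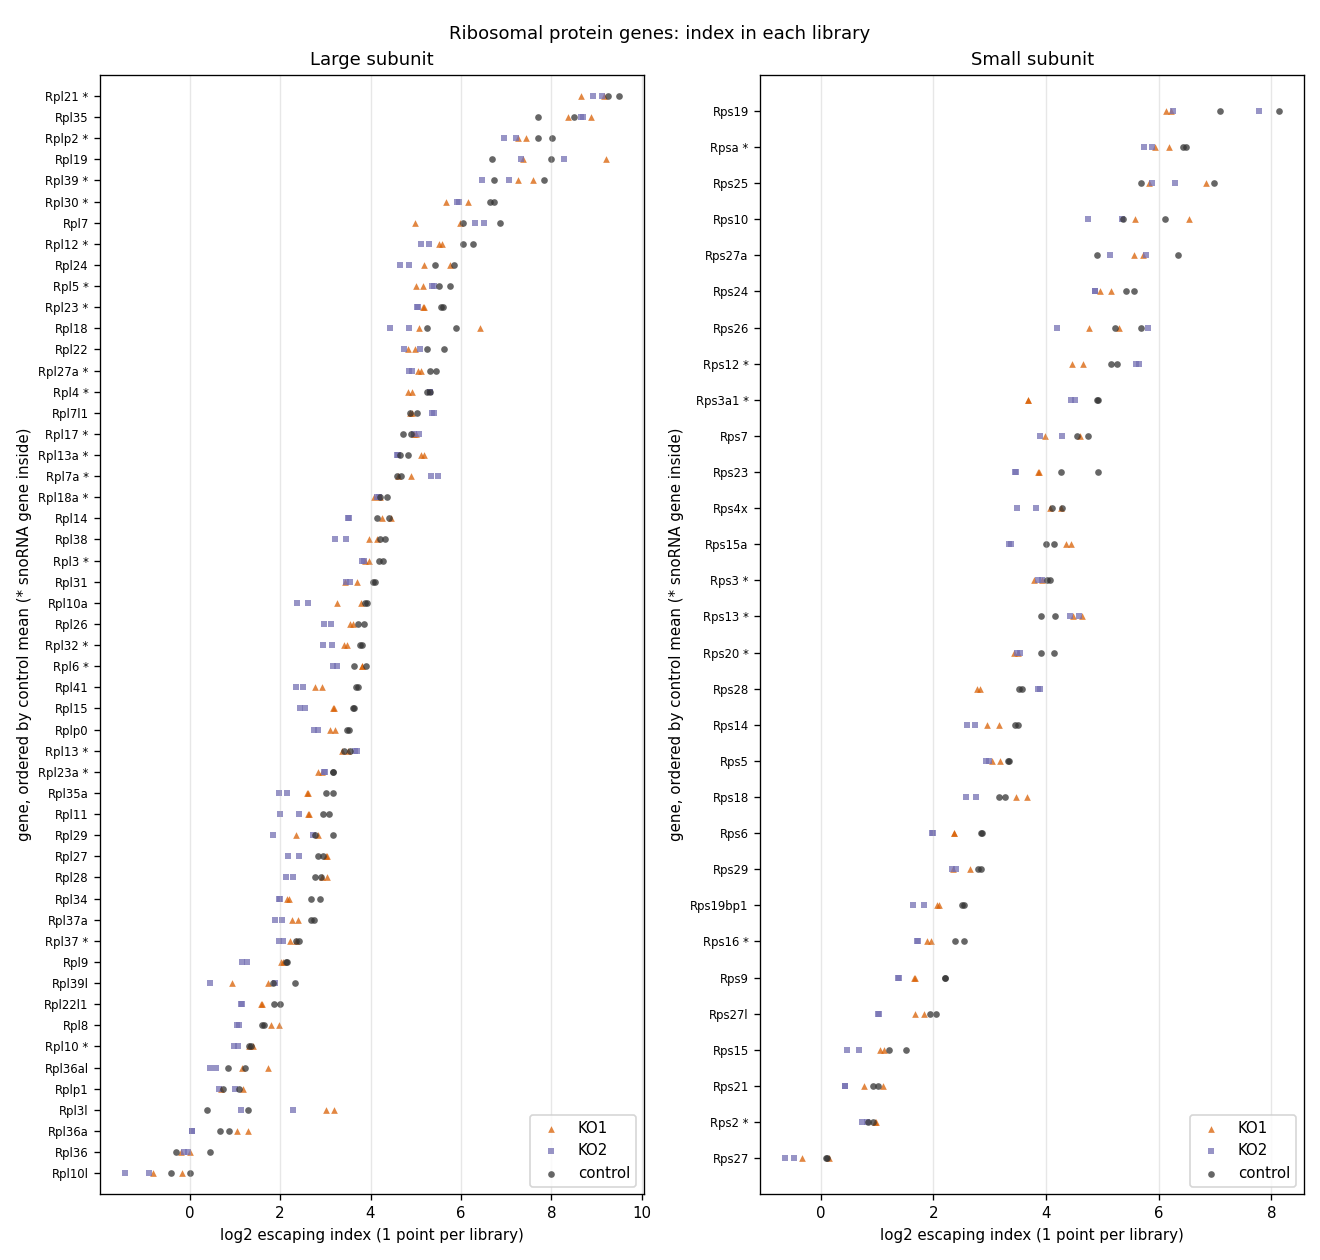
Log2 escaping index (x axis) of ribosomal protein genes (y axis) in the 2 libraries each of KO1 (triangles), KO2 (squares) and control (circles), with the large subunit on the left and the small on the right. Genes run from the highest control mean, 9.37 for Rpl21, to the lowest, -0.21 for Rpl10l, and the KO2 squares lie left of both control circles in most genes.

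The index of the ribosomal protein genes had a lower median in both knockouts, by about as much as that of all protein-coding genes. The library median over the 85 genes was 3.59 ± 0.113 in KO1, 3.29 ± 0.116 in KO2 and 3.88 ± 0.026 in control (SD, n = 2 each). Over all protein-coding genes it was 4.42 ± 0.0084 in KO1, 4.24 ± 0.0089 in KO2 and 4.79 ± 0.011 in control (SD, n = 2 each). The median change of the 85 genes was -0.28 in KO1, against -0.37 over all genes, and -0.55 in KO2, against -0.58 over all genes. After each library was centred on its median the members' medians were 0.09 in KO1 and 0.0019 in KO2. The medians of the subunits were close to each other. The large subunit's median change was -0.25 in KO1 and -0.56 in KO2, and the small subunit's -0.32 in KO1 and -0.55 in KO2.

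In KO2 against control, 32 of the 85 genes were called lower (37.6%), beside 29% of all protein-coding genes, and 1 was called higher, beside 0.563%. The 33 calls together stand beside 29.6% of all genes called in either direction. Of these 32 genes, 20 are named after the large and 12 after the small subunit, with Rps19bp1 among the 12. Their changes ran from -1.40 to -0.54. All 32 had both KO2 libraries below both controls, and 28 also had both KO1 libraries below them. Both KO2 libraries lay below both controls in 64 of the 85 genes, beside 67% of all genes, and above them in 8, beside 4.99%. The calls depend on the scaling and on single libraries. After centring on the medians or quantile normalization limma called none of the 85 genes (18 had an unadjusted p under 0.05 after each, 4 lower and 14 higher). Of all 12974 genes, 2992 had an unadjusted limma p under 0.05 after centring and 2959 after quantile normalization, not split by direction. The count of 33 became 17 without either KO1 replicate and 4 without control replicate 1. Without KO2 replicate 1, KO2 replicate 2 or control replicate 2 it was 0, with 32, 36 and 36 genes at an unadjusted p under 0.05.

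The leading genes of the large subunit in KO2 were Rpl41, Rpl15, Rpl10a, Rpl35a and Rpl9. Rpl41, a very short and basic peptide that bridges the subunits, was at 2.77 and 2.93 in KO1, 2.35 and 2.50 in KO2, and 3.67 and 3.73 in control. The groups did not overlap, with KO2 lowest, and the index fell by 1.27 on the log2 scale (SE 0.17, limma adjusted p = 0.017), which left 0.413 of the control ratio. Rpl15, a core protein of the large subunit, was at 3.20 and 3.16 in KO1, 2.55 and 2.43 in KO2, and 3.62 and 3.61 in control and fell by 1.13 (SE 0.16, limma adjusted p = 0.0173), but with the transcript nearest to the RefSeq start its change was -0.57 and was not called (limma adjusted p = 0.0815). Rpl10a, of the mobile stalk beside the tRNA exit site, was at 3.26 and 3.78 in KO1, 2.61 and 2.38 in KO2, and 3.91 and 3.87 in control and fell by 1.40 (SE 0.23, limma adjusted p = 0.0186). Both Rpl15 and Rpl10a had all 4 knockout libraries under the controls and KO2 under KO1. The other protein-coding transcripts of Rpl10a start 97 to 126 bases further down, and their changes in KO2 were smaller, from -0.61 to -0.52. Rpl35a, mutated in some patients with Diamond-Blackfan anaemia, was at 2.62 and 2.60 in KO1, 1.98 and 2.15 in KO2, and 3.02 and 3.17 in control and fell by 1.03 (SE 0.17, limma adjusted p = 0.0186). Rpl9 was at 2.03 and 2.07 in KO1, 1.15 and 1.27 in KO2, and 2.16 and 2.13 in control and fell by 0.94 (SE 0.17, limma adjusted p = 0.0198), with the KO1 libraries just under the controls. In the mm10 build, Rpl41 lies on chromosome 10 (128548114 to 128549305, minus strand), Rpl15 on chromosome 14 (18267823 to 18271067, minus strand) and Rpl10a on chromosome 17 (28328471 to 28331033, plus strand).

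Rplp0, the base of the stalk where elongation factors bind, was called lower in KO2 and was at 3.10 and 3.21 in KO1, 2.83 and 2.74 in KO2, and 3.49 and 3.53 in control. Rpl12, which lies beside it, was also called lower and was at 5.52 and 5.57 in KO1, 5.30 and 5.11 in KO2, and 6.26 and 6.05 in control. The index of Rplp2, whose values are given above, fell by 0.77 in KO2 (SE 0.22, limma adjusted p = 0.0467), but had a change of 0.0074 with the transcript nearest to the RefSeq start. For Rplp0, Rpl12 and Rplp2 the 4 knockout libraries lay below both controls. Their partner Rplp1 was not called, with a change of -0.08 (SE 0.27, limma adjusted p = 0.831).

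Rpl11, which joins Rpl5 in a particle that inhibits Mdm2, the ubiquitin ligase of p53, was called lower in KO2 and was at 2.63 and 2.64 in KO1, 2.42 and 2.00 in KO2, and 2.95 and 3.08 in control. Rpl23 was called lower at 5.16 and 5.17 in KO1, 5.04 and 5.05 in KO2, and 5.60 and 5.57 in control, and its change of -0.54 turned to 0.02 after centring. Rpl26, which binds p53 mRNA, was also called lower and was at 3.61 and 3.54 in KO1, 2.98 and 3.13 in KO2, and 3.72 and 3.86 in control. In these 3 genes KO2 was below KO1 and KO1 below control, without overlap. With genes of every biotype in the fit, each by its longest transcript, the KO2 change was 0.04 for Rpl11 and 0.63 for Rpl26. Rpl5 was not called, with a change of -0.26 in KO2 (SE 0.18, limma adjusted p = 0.284).

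The other large subunit genes called lower in KO2 have general structural roles. Rpl30 was at 5.67 and 6.16 in KO1, 5.96 and 5.91 in KO2, and 6.64 and 6.74 in control, with KO1 and KO2 overlapping. Rpl32 was at 3.47 and 3.41 in KO1, 3.15 and 2.94 in KO2, and 3.81 and 3.76 in control. Rpl34 was at 2.19 and 2.16 in KO1, 1.97 and 1.99 in KO2, and 2.69 and 2.89 in control. In all 3 the knockout libraries were below both controls. Rpl37a, a zinc finger protein, was at 2.25 and 2.39 in KO1, 1.90 and 2.04 in KO2, and 2.68 and 2.76 in control. Rpl38, known from mice in which its loss alters the translation of Hox mRNAs, was at 3.97 and 4.14 in KO1, 3.45 and 3.21 in KO2, and 4.22 and 4.31 in control. Rpl22l1, a paralog of Rpl22, was at 1.60 and 1.58 in KO1, 1.15 and 1.14 in KO2, and 1.99 and 1.87 in control. These 3 likewise had KO2 below KO1 and KO1 below control. Rpl14 was at 4.46 and 4.24 in KO1, 3.50 and 3.52 in KO2, and 4.15 and 4.41 in control, Rpl28 at 3.04 and 2.92 in KO1, 2.13 and 2.29 in KO2, and 2.77 and 2.90 in control and Rpl36a at 1.05 and 1.30 in KO1, 0.06 and 0.04 in KO2, and 0.87 and 0.67 in control. With the transcript nearest to the RefSeq start the KO2 change of Rpl28 was -0.23 and was not called (limma adjusted p = 0.36). In Rpl28 and Rpl36a both KO1 libraries lay above the controls, and in Rpl14 KO1 overlapped them.

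Among the genes named after the small subunit, 12 were called lower in KO2 (36.4%, beside 29% of all genes). Rps6, the target of the S6 kinases, was at 2.36 and 2.37 in KO1, 1.97 and 2.00 in KO2, and 2.87 and 2.84 in control and fell by 0.87 (SE 0.16, limma adjusted p = 0.0206). Rps23, a protein of the decoding centre, was at 3.85 and 3.88 in KO1, 3.45 and 3.46 in KO2, and 4.27 and 4.93 in control and fell by 1.14 (SE 0.25, limma adjusted p = 0.0266). Rps9, which lies by the mRNA entry channel, was at 1.67 and 1.65 in KO1, 1.37 and 1.39 in KO2, and 2.20 and 2.20 in control and fell by 0.82 (SE 0.16, limma adjusted p = 0.0232). KO2 lay under KO1 and KO1 under control in all 3, and the 2 controls of Rps23 were 0.66 apart. Rps14, at the platform by the mRNA exit, was at 2.95 and 3.17 in KO1, 2.60 and 2.74 in KO2, and 3.51 and 3.45 in control. Rpsa, also known as the laminin receptor, was at 5.93 and 6.18 in KO1, 5.75 and 5.88 in KO2, and 6.49 and 6.43 in control. Rps16 was at 1.88 and 1.96 in KO1, 1.72 and 1.70 in KO2, and 2.38 and 2.54 in control. In these the knockouts again stood below control without overlap. Rps24 and Rps15a are mutated in some patients with Diamond-Blackfan anaemia. Rps24 was at 5.15 and 4.95 in KO1, 4.87 and 4.87 in KO2, and 5.43 and 5.57 in control. Rps15a was at 4.36 and 4.43 in KO1, 3.37 and 3.34 in KO2, and 4.01 and 4.14 in control. For Rps15a both KO1 libraries were above both controls, and for Rps24 both were below. Rps15 was at 1.11 and 1.05 in KO1, 0.67 and 0.46 in KO2, and 1.21 and 1.51 in control, Rps27l, a p53-induced paralog of Rps27, at 1.84 and 1.67 in KO1, 1.04 and 1.02 in KO2, and 2.05 and 1.94 in control, and Rps19bp1 at 2.09 and 2.05 in KO1, 1.84 and 1.63 in KO2, and 2.55 and 2.51 in control. All 3 had KO2 lowest and control highest. With the transcript nearest to the RefSeq start Rps9 was not called in KO2 (-0.59, limma adjusted p = 0.0805). With the longest spliced transcript, the KO2 changes of Rps14 and Rps15 were 0.14 and 0.02.

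In KO1 against control, 2 of the 85 genes were called lower (2.35%), beside 6% of all protein-coding genes called lower and 6.27% called in either direction, and none was called higher, beside 0.27% (by limma 22 were lower and 3 higher at an unadjusted p under 0.05). Rps3a1, which binds at the mRNA exit, was at 3.67 and 3.69 in KO1, 4.44 and 4.52 in KO2, and 4.92 and 4.90 in control. KO1 was lowest and control highest without overlap, and the index fell by 1.23 in KO1 (SE 0.16, limma adjusted p = 0.0376), to 0.426 of the control ratio. In KO2 its change was -0.43 (SE 0.16, limma adjusted p = 0.0851). It lies on chromosome 3 (86137940 to 86142702, minus strand). Rpl41, described above, fell by 0.85 in KO1 (SE 0.17, limma adjusted p = 0.0497), and it was the 1 gene of the 85 called in both knockouts. With the transcript nearest to the RefSeq start it was not called in KO1 (-0.70, limma adjusted p = 0.071). Rps28 and Rps12 were among the next and missed the threshold, with changes of -0.75 and -0.65 (limma adjusted p = 0.0519 and 0.0696). Both KO1 libraries lay below both controls in 48 of the 85 genes, beside 53.3% of all genes, and above them in 12, beside 8.56%. Without any 1 of the 6 libraries no ribosomal protein gene was called in KO1 by limma, and 9 to 18 had an unadjusted p under 0.05. With the replicate number as a block the count was also 0, with 19 at an unadjusted p under 0.05.

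In the average of both knockouts, 23 of the 85 genes were called lower (27.1%), beside 26% of all genes, and 1 higher, beside 0.578%. Of the 24, 21 were also called in KO2. Rpl41 led, with a fall of 1.06 (SE 0.15, limma adjusted p = 0.0181), and Rps3a1 followed, with a fall of 0.83 (SE 0.13, limma adjusted p = 0.0185). Rps20 was called lower here and in neither knockout alone, and was at 3.51 and 3.43 in KO1, 3.53 and 3.49 in KO2, and 3.91 and 4.14 in control. All 4 knockout libraries of Rps20 were below both controls, as they were in 41 of the 85 genes, beside 45.3% of all genes. All 4 lay above both controls in 2 genes, Rps13 and Rpl17, beside 2.13% of all genes. Leaving out 1 library left 0 to 3 of the 24 calls by count, with 25 to 37 genes at an unadjusted p under 0.05 where limma called none, and the replicate block left 9.

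Few ribosomal protein genes were called higher without rescaling. Both libraries lay above both controls in 12 genes in KO1, beside 8.56% of all genes, and in 8 in KO2, beside 4.99%. After centring limma called none, and at an unadjusted p under 0.05 it had 15 genes higher and 3 lower in KO1, and 14 higher and 4 lower in KO2. Of all 12974 genes it had 2678 in KO1 and 2992 in KO2, not split by direction. Rpl7a, a large subunit protein, was at 4.88 and 4.60 in KO1, 5.49 and 5.34 in KO2, and 4.67 and 4.58 in control. Both KO2 libraries lay above the other 4, and the index rose by 0.79 in KO2 (SE 0.18, limma adjusted p = 0.0297), to 1.73 times the control ratio. It lies on chromosome 2 (26910764 to 26913318, plus strand). Rpl3l, a paralog of Rpl3 known from heart and skeletal muscle, was at 3.20 and 3.02 in KO1, 1.14 and 2.29 in KO2, and 1.29 and 0.38 in control. Both KO1 libraries were above the rest, the 2 controls were 0.92 apart and KO2 overlapped them. Its index rose by 1.58 in the average (SE 0.41, limma adjusted p = 0.0409), and in KO1 alone the change of 2.28 just missed the threshold (SE 0.47, limma adjusted p = 0.0501). Its transcript starts 348 bases downstream of the RefSeq start. Genes with the next smallest p among those with positive changes were not called. Rps13 was at 4.64 and 4.47 in KO1, 4.59 and 4.42 in KO2, and 4.17 and 3.91 in control, with all 4 knockout libraries above control. Rpl17, which lies at the exit tunnel, was at 5.00 and 4.95 in KO1, 4.97 and 5.07 in KO2, and 4.90 and 4.72 in control. Rpl7l1, a paralog of Rpl7, was at 4.86 and 4.92 in KO1, 5.36 and 5.40 in KO2, and 5.04 and 4.86 in control. Rpl13a, whose protein is released from ribosomes in human monocytes to silence inflammatory mRNAs, was at 5.18 and 5.12 in KO1, 4.59 and 4.60 in KO2, and 4.65 and 4.83 in control. KO2 was highest in Rpl7l1 and KO1 highest in Rpl13a, while the knockouts overlapped in Rps13 and Rpl17.

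KO2 values were mostly below KO1 values, and in some genes the knockouts lay on opposite sides of control. KO2 was below KO1 in 65 of the 85 genes, beside 67.6% of all genes, with a median difference between KO1 and KO2 of 0.31. No gene in the table was called for KO1 against KO2 by limma (smallest adjusted p among the 85 genes 0.125), although 32 of the 85 and 2664 of all 12974 had an unadjusted p under 0.05. In 9 genes both KO1 libraries lay above both controls and both KO2 libraries below them. With 2 genes of the opposite order this made 11 (12.9%, beside 3.41% of all genes, not split by direction). The widest apart of the 9 were Rpl36a and Rps15a, given above, and Rps18. Rps18 was at 3.47 and 3.67 in KO1, 2.76 and 2.57 in KO2, and 3.27 and 3.16 in control. In Rps12 and Rps28 the order was the opposite. Rps12 was at 4.47 and 4.65 in KO1, 5.65 and 5.60 in KO2, and 5.15 and 5.26 in control. Rps28 was at 2.83 and 2.76 in KO1, 3.89 and 3.85 in KO2, and 3.51 and 3.57 in control. In both, KO1 was lowest, control in the middle and KO2 highest, with no overlap. In Rps28 this holds for the longest transcript. With the one nearest to the RefSeq start its changes were -0.21 in KO1 and -0.14 in KO2. Neither was called (limma adjusted p = 0.413 and 0.531). The changes of Rps12 with that choice were -0.54 in KO1 and 0.51 in KO2. The longest transcript of Rps28 overlaps Kank3 on the other strand, and 18 of the 85 genes overlap such a gene, among them Rpl10a, Rpl12, Rpl22l1, Rpl28, Rpl30, Rpl32, Rpl35, Rpl35a and Rpl7l1. On their own strand 10 overlap another gene, among them Rpl13a, Rpl3, Rpl36al and Rps21. Since it is not known here whether counting used the strand, reads of both genes may be mixed in all of these.

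**Figure D2:**
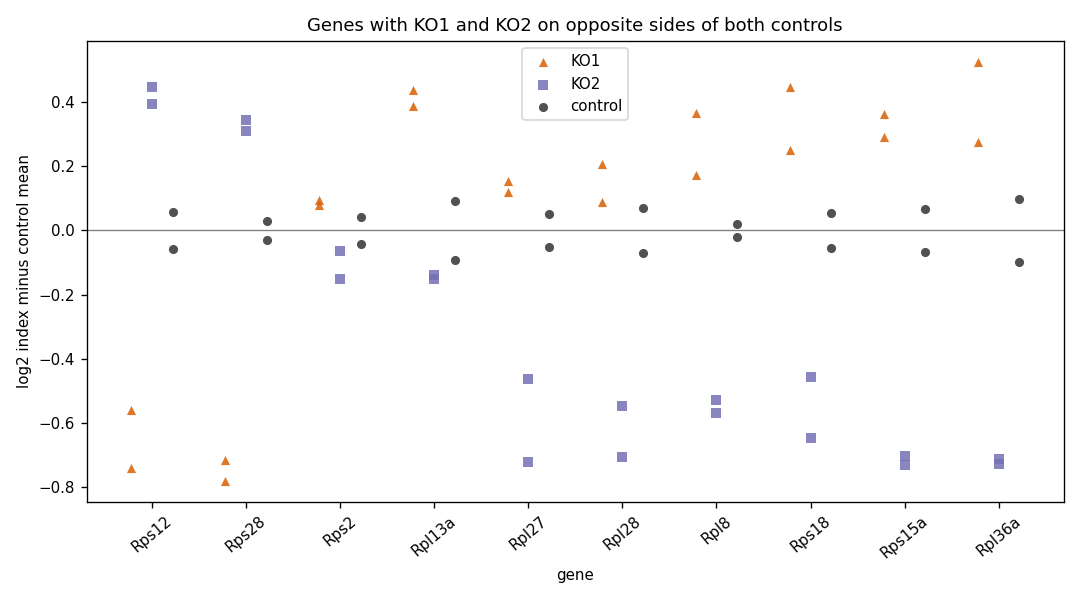
Log2 index minus the control mean (y axis) for ribosomal protein genes (x axis) whose KO1 libraries (triangles) and KO2 libraries (squares) lie on opposite sides of both controls (circles). KO1 is lower and KO2 higher in Rps12 and Rps28, and the other genes show KO1 higher and KO2 lower.

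A feature the symbols did not choose is the snoRNA gene. Of the 85 genes, 30 hold a snoRNA gene on the same strand within the longest transcript (35.3%, against 1.78% of all protein-coding genes), 20 in the large and 10 in the small subunit. Together they hold 58 snoRNA genes of 65 to 203 bases, and 35 of these have lengths within the 35 to 100 bases that were cut from the gel. The snoRNAs shown are those in the genes with the called rise in KO2 (Rpl7a), the called fall in KO1 (Rps3a1), the positive changes in both knockouts that missed the threshold (Rps13), and 1 of those in Rps12. They are given from the GENCODE M21 transcripts, 5′ to 3′, with the letters TGATG (as in box C) and CTGA (as in box D) in capitals wherever they occur.
Gm23969 in Rpl7a, chr2:26911261-26911334 (plus strand): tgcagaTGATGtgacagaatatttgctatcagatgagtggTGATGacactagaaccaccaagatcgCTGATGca
Gm22879 in Rpl7a, chr2:26912218-26912291 (plus strand): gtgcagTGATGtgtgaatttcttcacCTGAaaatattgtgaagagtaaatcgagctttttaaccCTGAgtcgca
Gm24134 in Rpl7a, chr2:26912530-26912600 (plus strand): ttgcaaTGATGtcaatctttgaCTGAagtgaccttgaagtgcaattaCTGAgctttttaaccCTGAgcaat
Snord100 in Rps12, chr10:23785750-23785823 (minus strand): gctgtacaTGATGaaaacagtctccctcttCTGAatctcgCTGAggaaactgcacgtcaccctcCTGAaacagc
Snord14a in Rps13, chr7:116333171-116333257 (minus strand): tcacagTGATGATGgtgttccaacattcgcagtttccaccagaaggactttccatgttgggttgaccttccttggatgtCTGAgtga
Snord73a in Rps3a1, chr3:86138791-86138858 (minus strand): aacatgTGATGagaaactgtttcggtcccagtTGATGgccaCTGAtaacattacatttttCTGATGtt
Rnu73b in Rps3a1, chr3:86140618-86140688 (minus strand): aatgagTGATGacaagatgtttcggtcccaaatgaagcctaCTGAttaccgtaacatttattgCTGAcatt
All 7 hold both sets of letters. A match of letters is a description of the sequence and no test of a snoRNA's class.

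Genes with a snoRNA inside had a higher index and a smaller median change in KO2. Their median control index was 4.68 over 30 genes, against 3.39 over the 55 without, although their spans were alike (medians of 3037 and 3289 bases). In KO2 their median change was -0.33, with 7 called lower (23.3%) and 1 higher. Among the 55 without a snoRNA it was -0.70, with 25 called lower (45.5%). Over all protein-coding genes the median was -0.58 and 29% were called lower, with 25.5% among those that hold a snoRNA and 29.1% among those that do not. In KO1 the medians were -0.31 with and -0.24 without a snoRNA. KO2 was below KO1 in 16 of the 30 genes with and in 49 of the 55 without a snoRNA, beside 67.6% of all genes. Put the other way, KO1 was below KO2 in 46.7% of the 30 and 10.9% of the 55. It was so in 26.9% of the 201 other genes that host a snoRNA and in 32.5% of all genes without one. Among other genes of the table that host a snoRNA (201 genes) the median change in KO2 was -0.50, and 52 were called lower (25.9%). These splits were made after the values were known and were not tested, and the part of snoRNA reads in any of these values was not tested.

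**Figure D3:**
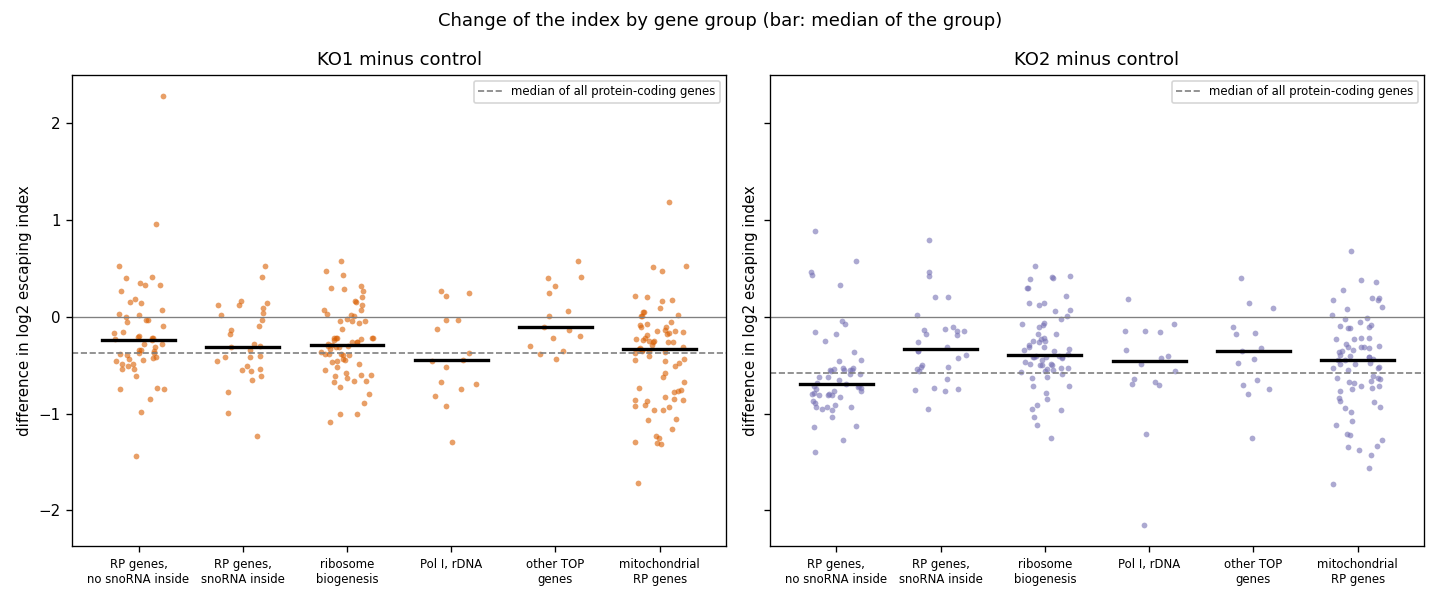
Difference in log2 index between KO1 and control (left) and KO2 and control (right), 1 point per gene, for ribosomal protein genes without and with a snoRNA gene inside and for 4 other gene groups. Bars are group medians, the dashed line is the median of all protein-coding genes, and in KO2 the bar of genes without a snoRNA (-0.70) lies below that of genes with one (-0.33).

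The table gives other transcripts of the same genes, whose start lies elsewhere, and these show how far the value depends on where the ratio begins. There were 473 transcripts for the 85 genes, 225 of them protein-coding. In the 54 genes with more than 1 protein-coding transcript, the control index differed by a median of 2.45 between transcripts of a gene. All protein-coding transcripts were below control in KO2 in 33 of these 54 genes and in KO1 in 25. The share over all genes with several transcripts was not computed. By the longest transcript alone, 85.8% of all genes were below control in KO2 and 77.0% in KO1. Transcripts of a gene share reads and are not replicates. Rpl41 had 7 transcripts, each lower in KO2, by 0.60 to 1.27, and each lower in KO1, by 0.27 to 0.85. Its longest transcript starts 137 bases upstream of the RefSeq start. The control index was 3.70 for that transcript and 1.08 for 1 that starts 143 bases further down.

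In Rpl7a the direction depended on the start. The longest transcript had a change of 0.79 in KO2 and of 0.12 in KO1, and a transcript that starts 242 bases in had 0.94 in KO2 and 0.54 in KO1. A transcript that starts 1428 bases in, 26 bases before the snoRNA gene Gm22879, had changes of -1.25 in KO2 and -0.34 in KO1. One that starts 1855 bases in, past all 3 snoRNA genes, had changes of -1.30 in KO2 and -0.31 in KO1. Averaged over all transcripts of the gene, the change in KO2 was -0.03. Rps13 had the same order. Its 7 transcripts that start within 78 bases of each other had changes of 0.45 to 0.69 in KO2, and 1 that starts 1013 bases in, inside Snord14a, had -0.72. Over the 85 genes, 11 transcripts of 10 genes start at least 300 bases in and within 100 bases of the beginning of a snoRNA gene. Both distances were chosen after the values of Rpl7a and Rps13 were known, and the set includes a transcript of each. All 11 had a lower index in KO2 than in control (median -0.57, from -1.25 to -0.18), and 5 had a lower index in KO1 (median 0.08). Without Rpl7a and Rps13, the KO2 median was -0.40 over the other 9. The median control index of the 11 was -3.43, far below that of the transcripts they stand beside, and none of this was tested. Of 46 other inside-starting transcripts of genes with a snoRNA, 19 were lower in KO2 (median 0.09), at a median control index of 0.06. Of 92 inside-starting transcripts of genes without a snoRNA, 60 were lower in KO2 (median -0.17).

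**Figure D4:**
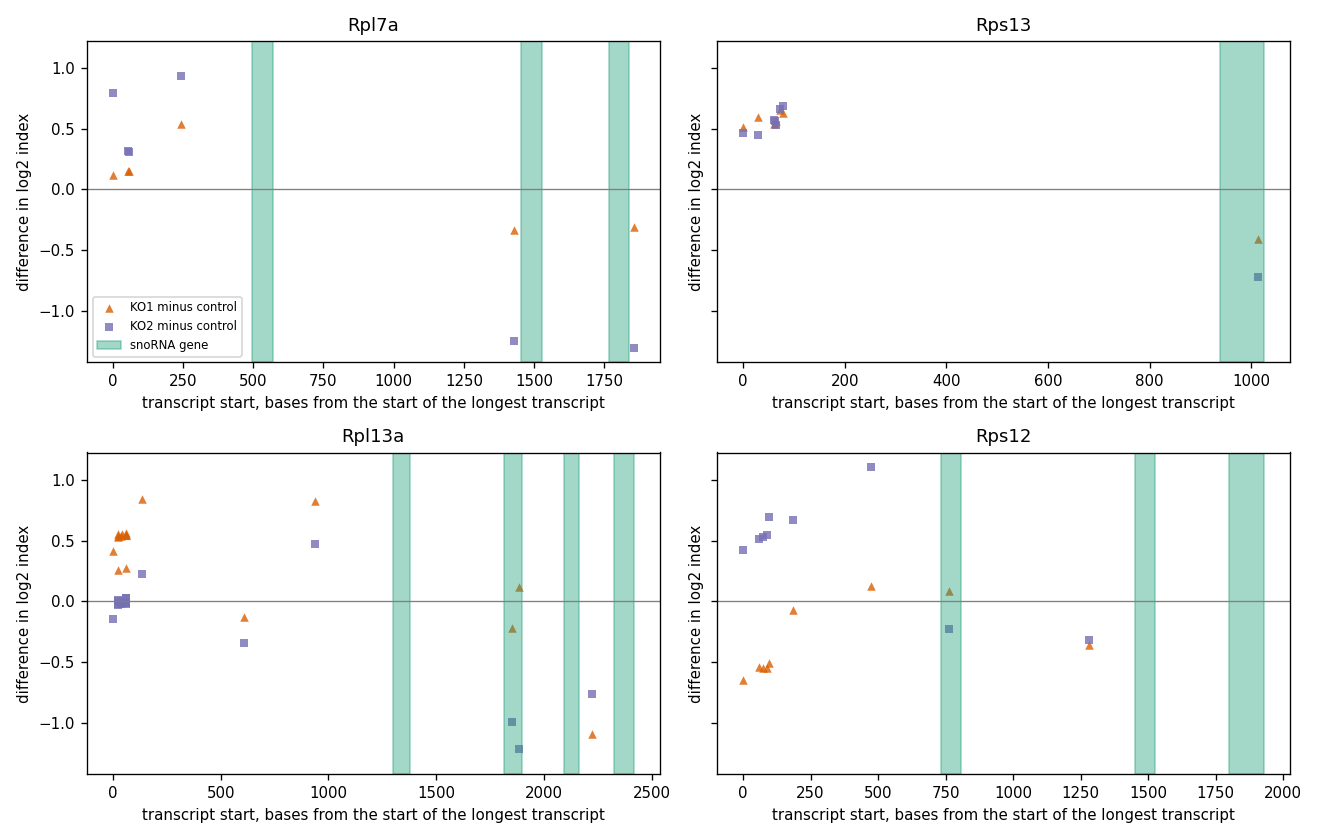
Difference in log2 index from control (y axis) for each listed transcript of Rpl7a, Rps13, Rpl13a and Rps12 in KO1 (triangles) and KO2 (squares), placed by its start in bases from the start of the longest transcript (x axis), with snoRNA genes as green bands. In Rpl7a and Rps13 transcripts that start before the first band have positive values and those that start at or after a band have negative ones.

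The annotated start also goes with the level of the index. For 11 of the 65 genes with a RefSeq start, the longest transcript begins 100 or more bases upstream of it, and for 52 within 100 bases of it. The median control index was 6.16 over the 11 genes, against 3.52 over the 52. The 11 include Rpl35, Rplp2, Rps19 and Rpl39, so that the highest indices of the family were partly those of transcripts with an upstream start. The largest gaps between libraries of a group were in KO1 for Rpl19 (1.85), in KO2 for Rps26 (1.62) and in control for Rps27a (1.43). Among the 52 genes near the RefSeq start, 24 were called lower in KO2 (46.2%), beside 29% of all protein-coding genes, wherever those start. The share among all genes with a start so placed was not computed. The 24 were 3 of the 17 with a snoRNA (17.6%) and 21 of the 35 without, a split made after the values were known. With the transcript nearest to a RefSeq start in place of the longest, a choice made after seeing the data, 27 of the 65 ribosomal protein genes were called in KO2, beside 29% of 10121 genes, and 29 of the same 65 had been called with the longest.

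**Figure D5:**
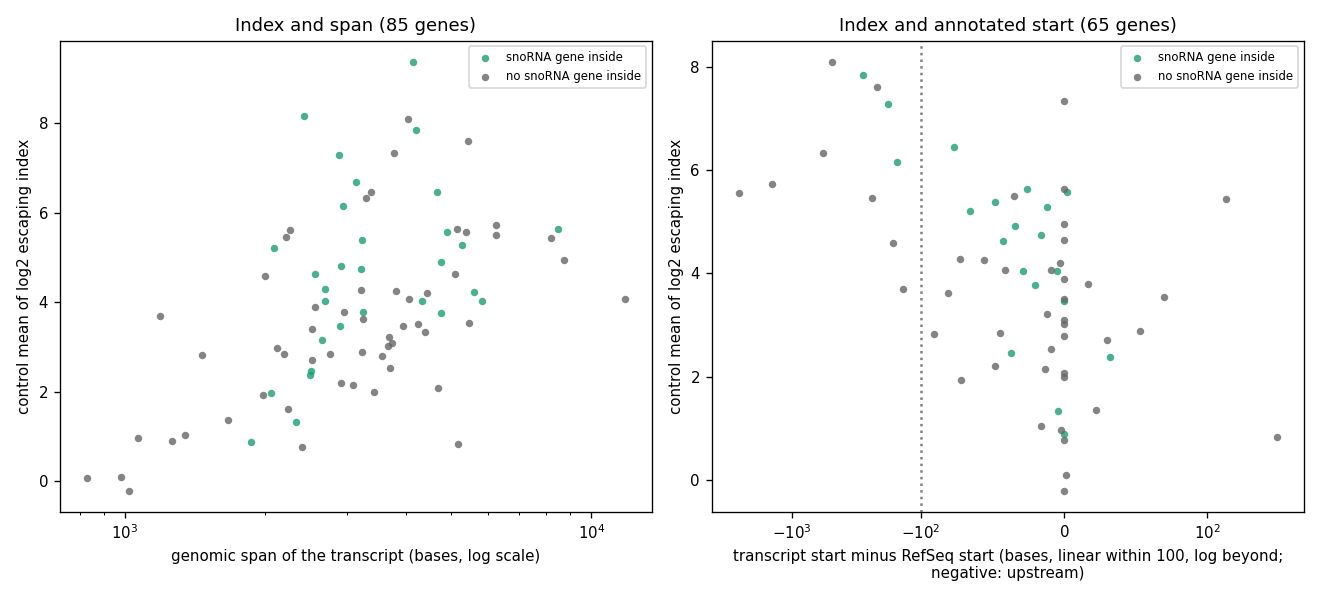
Control mean of the log2 index (y axis) against the genomic span of the transcript (left, log scale, 85 genes) and against the distance of its start from the RefSeq start (right, 65 genes), with genes that hold a snoRNA in green and the others in grey. Genes left of the dotted line start over 100 bases upstream and have a median of 6.16, against 3.52 for the 52 genes within 100 bases.

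Paralogs differed in index from the genes they resemble. Rpl22, which binds RNA and is lost in some human leukaemias, was at 4.98 and 4.83 in KO1, 4.74 and 5.09 in KO2, and 5.26 and 5.62 in control, far above Rpl22l1. Rpl39, the small protein lining the exit tunnel, was at 7.26 and 7.59 in KO1, 6.46 and 7.07 in KO2, and 6.73 and 7.84 in control, while its germ cell paralog Rpl39l was at 1.72 and 0.94 in KO1, 0.45 and 1.88 in KO2, and 1.84 and 2.32 in control. Rpl3, near the peptidyl transferase centre, was at 3.87 and 3.96 in KO1, 3.85 and 3.82 in KO2, and 4.19 and 4.27 in control, above Rpl3l in every library. Rpl10, which completes the large subunit's active site late in assembly, was at 1.30 and 1.40 in KO1, 0.98 and 1.07 in KO2, and 1.31 and 1.35 in control, above Rpl10l. Rps27l, whose values are given above, was higher than Rps27 in all 6 libraries. Rpl36al was at 1.16 and 1.73 in KO1, 0.45 and 0.57 in KO2, and 0.85 and 1.23 in control, close to Rpl36a in control. Rpl7 was at 5.97 and 4.99 in KO1, 6.52 and 6.32 in KO2, and 6.05 and 6.87 in control, and its libraries differed by up to 0.98 within a group. The gene named with a final l or l1 had the lower index in all 6 libraries in 5 of the 7 pairs, the exceptions being Rps27l and Rpl36al. Spans differ too, with 1980 bases in Rpl22l1 against 8205 in Rpl22, and 1023 in Rpl10l against 2324 in Rpl10. Rps27l spans 3427 against 981 in Rps27. The other way, Rpl39l spans 4684 against 2883 in Rpl39, and Rpl7l1 8750 against 3368 in Rpl7. The part of span and start in these differences was not tested. Of the 14 genes in the 7 pairs, Rpl22l1, Rps27l and Rpl36a were called lower in KO2, beside 29% of all genes. Rpl3l was called higher in the average, beside 0.578%. Reads of near-identical copies may be split between them, and 60 of the 85 genes have named pseudogenes in the annotation (292 in all). It is not known here how reads that match several places were counted, so these values are uncertain.

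Promoter letters were read from RefSeq windows of 250 bases before to 50 after the gene start (GRCm38.p6), found for 65 of the 85 genes and 10121 of all genes. The letters CCGGAAG, on either strand, which ETS family factors are known to bind, were in 25 windows (38.5%), against 18.5% of all. CTTTC on the gene's strand, a pyrimidine run like that at a TOP start, was in 40 (61.5%), against 30.8% of all, and the longer CTCTTT, which can overlap it, in 22 (33.8%), against 9.62%. TATAA on the gene's strand was in 15 (23.1%), against 8.33%, and AAGATGGC, of YY1, on either strand in 5 (7.69%), against 4.73%. Some of these letters were chosen after the data were seen. The ETS letters were in 9 of the 28 windows of genes called lower in KO2 and in 16 of the 37 other windows. The sequences shown are from 4 genes that were called lower in KO2 and hold the ETS letters in the stretch shown. Each gives 80 bases before to 20 after the start of the longest transcript, 5′ to 3′ on the gene's strand, with CCGGAAG and CTTTC in capitals.
Rpl11, chr4:136053374-136053473 (minus strand): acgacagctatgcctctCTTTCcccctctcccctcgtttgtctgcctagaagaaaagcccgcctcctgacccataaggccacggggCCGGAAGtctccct
Rpl15, chr14:18271048-18271147 (minus strand): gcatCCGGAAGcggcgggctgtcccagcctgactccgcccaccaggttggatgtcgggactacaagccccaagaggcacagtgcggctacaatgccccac
Rps27l, chr9:66946006-66946105 (plus strand): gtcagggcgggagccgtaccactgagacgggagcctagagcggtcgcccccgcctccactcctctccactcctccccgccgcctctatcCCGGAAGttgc
Rps6, chr4:86857393-86857492 (minus strand): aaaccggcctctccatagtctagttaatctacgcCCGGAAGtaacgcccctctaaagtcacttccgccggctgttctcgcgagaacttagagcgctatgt
In Rpl11 and Rps27l the ETS letters lie just after the start, and in Rpl15 and Rps6 before it, in Rpl15 at the far end of the stretch. Stretches of other genes hold the letters and are not shown, among them Rpl26 (called lower in KO2) and Rpl19, Rps18 and Rps21 (not called). The change of Rpl19 in KO2 was 0.46 (SE 0.75, limma adjusted p = 0.652), and its KO2 libraries overlapped the controls. A protein-coding transcript of Rpl19 that starts 214 bases in had -0.60. The longest transcripts of Rpl15 and Rps6 start 81 and 45 bases upstream of their RefSeq starts. A match is a description and not a binding site.

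Other genes of ribosome production also had negative median changes. Of 66 measured ribosome biogenesis factors, 1 was called lower in KO1 (1.52%, beside 6% of all genes) and 10 in KO2 (15.2%, beside 29%). Over both, 11 were called lower (16.7%, beside 26%). Their median changes were -0.29 in KO1, -0.39 in KO2 and -0.34 over both. Nufip1, a snoRNP assembly factor, was called in both knockouts, with a mean index of 4.14 in KO1, 4.17 in KO2 and 5.14 in control. Nop9 averaged 4.10 in KO1, 3.71 in KO2 and 4.83 in control, and was called in KO2, as was Brix1, a large subunit assembly factor, at 4.31 in KO1, 4.26 in KO2 and 5.20 in control. Tsr2, which escorts Rps26 to the ribosome, averaged 2.64 in KO1, 2.56 in KO2 and 3.28 in control and was also called in KO2. Of 16 genes of RNA polymerase I and rDNA transcription, 1 was called lower in KO1 (6.25%, beside 6% of all genes) and 5 in KO2 (31.25%, beside 29%). Over both, 4 were called lower (25%, beside 26%). The medians of the 16 were -0.45 in KO1 and -0.46 in KO2. Twistnb, a polymerase I subunit, averaged 4.18 in KO1, 4.25 in KO2 and 5.47 in control and was called in both. Cd3eap, another subunit, averaged 4.80 in KO1, 3.57 in KO2 and 5.72 in control, and its fall of 2.15 in KO2 was larger than any among the ribosomal protein genes (SE 0.30, limma adjusted p = 0.017). Ttf1 and Polr1b were called in KO2, with changes of -0.71 and -0.70.

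Of 15 other genes with TOP mRNAs, none was called lower in KO1 by limma, beside 6% of all genes (0 had an unadjusted p under 0.05). In KO2, 2 were called lower (13.3%, beside 29%), Eif4b (-0.75) and Eef1g (-0.79). The medians of the 15 were -0.11 in KO1 and -0.36 in KO2. Naca and Eif3l had changes of -0.65 and -1.26 in KO2 and were not called (limma adjusted p = 0.0605 and 0.0708). Among ribosomal protein genes whose symbols the rule does not take, Fau was called lower in KO2 (-0.90, limma adjusted p = 0.0241), while Rack1 had a change of 0.35 and was not called. Of 75 mitochondrial ribosomal protein genes, 6 were called lower in KO1 (8%, beside 6% of all genes), 19 in KO2 (25.3%, beside 29%) and 17 over both (22.7%, beside 26%), with medians of -0.33 in KO1 and -0.45 in KO2. Mrps35 and Mrpl4 led, with falls of 1.29 and 1.72 in KO1 and of 1.23 and 1.42 in KO2. Mrpl57 and Mrps30 fell in KO2 by 1.72 and 1.12.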

How the data were processed

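The measurements are 6 mNET-seq libraries, 2 per group. Per the labels' protocols, RNA polymerase II was precipitated from chromatin cut with micrococcal nuclease, and its RNA of 35 to 100 bases was taken from a gel. Per the submitters' processing notes, CASAVA, Trimmomatic 0.38, HISAT2 2.1.0, featureCounts and the mm10 build were used, with no statement of their roles, settings or use of strand. The values are log2, as deposited by the authors in a table of an escaping index for 68473 transcripts, with no read counts.

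Transcript IDs were matched to GENCODE M21 on the same build (68397 matched and 76 did not). Each of 12974 genes took its longest protein-coding transcript by genomic span. limma 3.58.1 (R 4.3.3) was run on all 3 groups at once (trend, two-sided, Benjamini-Hochberg adjustment over all genes), without rescaling the libraries, with 3 residual and 2.68 prior degrees of freedom. The deposited values were already log2, so no pseudocount was added, and no gene was filtered out. The fit was tested on simulated data of 12974 genes, in 5 runs with 200 changed genes each. Changes of 2 and 1 were set in both directions and alike in both knockouts, with no shift of the whole table. In KO1 it recovered 85.2% of changes of 2 and 8.6% of changes of 1, in KO2 86.8% and 9.2%, and for the average 92.8% and 24.8%. False calls were 30 of 499 for KO1, 21 of 501 for KO2 and 30 of 618 for the average. In the deposited data the library medians of the knockouts lie below control, so these rates need not hold for the calls reported here.

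Same-numbered replicates did not deviate together (correlations of deviations 0.0077, 0.0016 and -0.0090), so the numbers were not taken to pair the samples. No 2 libraries held identical values.

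Values in every library are given for genes called in any comparison, for the 5 with the smallest p in each direction in each knockout and in the average, for the 3 with the highest and lowest control means per subunit, for paralog pairs, and for the 3 with the smallest p in each direction between the knockouts. The members and the gene lists were chosen with earlier results of these data known. A few of these genes are counted but not reported here by name. Bysl, of the biogenesis list, had no value. The alternatives tried were centring, quantile normalization, a pseudocount, a filter, other transcripts and gene sets, other variance models, a replicate block and leaving out each library. Python 3.11.15, pandas 2.3.3, numpy 2.4.6 and matplotlib 3.10.9 were used.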

Additional observations from a re-analysis of the deposited data

Results flagged for a closer look

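In 11 of the 85 ribosomal protein genes (12.9%, beside 3.41% of all protein-coding genes, or 443), both libraries of 1 knockout lay above both controls and both libraries of the other lay below them. None of these differences passed limma's adjusted test of KO1 against KO2, with adjusted p from 0.125 to 0.565 over the 11 genes. The difference between KO1 and KO2 was -1.07 in Rps12 and -1.07 in Rps28, where KO1 was below and KO2 above control. With the transcript nearest to the RefSeq start both changes of Rps28 were negative (-0.21 in KO1 and -0.14 in KO2). In the other 9 KO1 was above and KO2 below control, with a difference between KO1 and KO2 that was, among those given here, 0.2 in Rps2, 0.56 in Rpl13a, 0.73 in Rpl27, 0.77 in Rpl28, 0.82 in Rpl8, 0.9 in Rps18, 1.04 in Rps15a and 1.12 in Rpl36a. A snoRNA gene lies within 4 of the 11, and its part in the differences was not tested. The standard error of the difference in Rps2 was 0.18.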

How the results depend on the processing

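Counts of called genes are given for all genes, with the ribosomal protein genes after them. As reported, the counts were 813 and 2 for KO1, 3839 and 33 for KO2, and 3444 and 24 for the average. Centring on the medians and quantile normalization each left 0 and 0 for all 3 (with limma, 2678, 2992 and 3063 of all genes had an unadjusted p under 0.05 after centring). Centring takes off the library medians, which differ from control by -0.38 (KO1), -0.56 (KO2) and -0.47 (average). The members' median change then turned to 0.094, 0.0019 and 0.056, and under quantile normalization to 0.079, 0.020 and 0.067. After centring, 3 members were lower and 15 higher in KO1 at an unadjusted p under 0.05, 4 and 14 in KO2, and 2 and 10 in the average. The replicate numbers do not pair the samples, and with the replicate block the counts were 0 and 0 in KO1, 2921 and 23 in KO2, and 2494 and 9 in the average. Leaving out each library in turn gave 0 and 0 in KO1, 0 to 2755 and 0 to 17 in KO2, and 0 to 1138 and 0 to 3 in the average, by fits with fewer samples in which a lone library is assumed to vary like the other groups. With KO1 and control only, KO1 had 0 and 0 (3713 and 16 at an unadjusted p under 0.05), and with KO2 and control only KO2 had 2757 and 17. Pooling the 4 knockout libraries gave 1888 and 3 for the average. The mean over all transcripts gave 121 and 1 in KO1, 2223 and 19 in KO2, and 1918 and 9 in the average, and genes of every biotype gave 0 and 0, 3069 and 20, and 2619 and 9. Members called in KO1 numbered 3 with a filter on low ratios, 3 with a pseudocount of 1 and 1 with the longest spliced transcript. No gene was called for KO1 against KO2 in any of the fits (1690 to 3122 at an unadjusted p under 0.05). Among the members called in KO2, signs turned there for Rpl11 (0.038) and Rpl26 (0.63) with genes of every biotype. They also turned for Rpl23 (0.018 centred and 0.033 by quantile), Rpl7a (-0.033, mean over transcripts) and Rplp2 (0.0074, nearest RefSeq start). With the longest spliced transcript they turned for Rps14 (0.14) and Rps15 (0.019), and Rps14 was also 0.0073 in the average. Rps28, which was not called, had a KO2 change of -0.14 with the transcript nearest to the RefSeq start. The causes were not tested. Unknown read depth limits what can be said of genes with low signal.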
